A study of Mus musculus with 8 samples.

Results

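The 36 genes described here code for glucose and lactate transporters, the enzymes of glycolysis and their regulators, the mitochondrial entry of pyruvate, and the response to low oxygen. They were chosen by gene symbol, with earlier results of these data known, and are 36 of the 55665 genes in the deposited tables. The symbol Aldoa stands on 2 rows, so 37 rows matched. The row used for Aldoa is the main gene (ENSMUSG00000030695.16), and the second, ENSMUSG00000114515.2, is given apart. All 36 genes passed the filter on low counts, as did 16642 genes in all.

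The RNA came from mouse nTreg cells (natural regulatory T cells), which restrain immune responses and depend on the transcription factor Foxp3. They were CD4-positive, GFP-positive cells, sorted out of lymph nodes and spleen of animals labelled RosaCas9/+ Foxp3gfp, which carry the Cas9 nuclease and a green fluorescent Foxp3 reporter, and were then cultured. The 4 groups held 2 libraries each: Foxp3 guide RNA (sgFoxp3) restimulated for 3 h with antibodies to CD3 and CD28, control guide (sgNC) restimulated in the same way, Foxp3 guide at 0 h with mock treatment in buffer (DPBS), and control guide at 0 h with the same mock treatment. Every group carried Cas9 and the reporter, and the age of the animals is not used here. The labels do not say whether the libraries of a group came from separate cultures or animals. P-values therefore rest on the spread among 2 libraries per group, and this spread may be technical.

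Library totals ran from 55865290 to 94807362 expected counts with the Foxp3 guide at 3 h, 45518491 to 48626432 with the control guide at 3 h, 64135431 to 66804803 with the Foxp3 guide at 0 h and 38729009 to 42698042 with the control guide at 0 h. Foxp3, the targeted gene, had 30.7 and 27.9 TPM (a level scaled by transcript length and by library) with the Foxp3 guide and 337 and 329.8 TPM with the control guide at 3 h, and 44.0 and 44.4 TPM against 486 and 501 TPM at 0 h. The CD4 T cell transcripts Cd3e and Cd4 were at 68.3 TPM or above in every library. Of the other CD4 T and Treg transcripts, Il2ra, Ctla4 and Ikzf2 had lower TPM with the Foxp3 guide at both times, and Cd3g higher. Il2ra had 850 and 820 TPM against 1813 and 1717.5 TPM with the control guide at 3 h. At 0 h it had 99.1 and 103.55 against 591 and 607 TPM. Ctla4 had 227 and 224 against 804 and 795 TPM at 3 h, and 343 and 359 against 627 and 579 TPM at 0 h. Ikzf2 had 68.7 and 67.55 against 79.7 and 71.1 TPM at 3 h, and 72 and 71 against 146 and 158 TPM at 0 h. In the test on counts described below, the guide effect on Ikzf2 at 3 h was 0.09 ± 0.04 (log2, SE). It did not pass the threshold, so a lower level of Ikzf2 at 3 h rests on TPM alone. The summed level of 3 NK cell transcripts was 1.41 to 1.75 TPM with the Foxp3 guide and 4.16 to 4.24 TPM with the control guide at 3 h, and 1.83 to 1.94 TPM against 1.21 to 1.44 TPM at 0 h. Of these Eomes, which some T cells also express, had 1.71 and 1.39 TPM with the Foxp3 guide against 4.24 and 4.15 TPM with the control guide at 3 h, Klrb1c had 0.67 and 0.6 TPM against 0.06 and 0.05 TPM at 0 h, and Ncr1 stood at 0 to 0.02 TPM. A summed set of 8 cell division transcripts, Mki67 and Top2a among them, differed with both guide and time. It came to 302 to 321 TPM with the Foxp3 guide at 3 h, 63.2 to 66.4 TPM with the control guide at 3 h, 1404 to 1427 TPM with the Foxp3 guide at 0 h and 334 to 357 TPM with the control guide at 0 h. The globin gene Hba-a1, an erythroid transcript, had 176 and 173 TPM in Foxp3-guide cells and 18.2 and 17.5 TPM in control-guide cells at 3 h, and 194 and 197 TPM against 30.4 and 30.1 TPM at 0 h. Of 4 stromal and endothelial transcripts, only Pecam1, which T cells also express, was above 0.23 TPM, and the sum was 17.3 TPM with the Foxp3 guide and 14.3 to 15.1 TPM with the control guide at 3 h, and 67.9 to 68.6 TPM against 128 to 137 TPM at 0 h. The part of cell division and of other cells in the results on these 36 genes was not tested. In these bulk samples, fewer cells of a type and less RNA per cell cannot be told apart.

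Glycolysis turns glucose into pyruvate in the cytosol. Pyruvate is then either reduced to lactate and exported, or carried into mitochondria and oxidised. T cells raise glycolysis when the T cell receptor (TCR) is engaged, and the oxygen-regulated factor HIF-1 (hypoxia-inducible factor, whose alpha subunit is Hif1a) drives many of the same genes. Quiescent Treg cells are known to rely more on oxidation than activated conventional T cells do.

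Together the 36 genes took a larger share of the transcriptome after stimulation with either guide, and at 0 h it was larger in Foxp3-guide cells. Their summed share of TPM was 0.778% in both Foxp3-guide libraries and 0.794% and 0.793% in the control-guide libraries at 3 h, and 0.598% and 0.591% against 0.474% and 0.491% at 0 h. The groups did not overlap at either time, and the guides were closer at 3 h. As a share of counts, without length scaling, the order at 3 h was the other one, with 0.963% and 0.980% in Foxp3-guide libraries against 0.913% and 0.928% in control-guide libraries, while at 0 h it was 0.701% and 0.690% against 0.527% and 0.537%. The 7 enzymes that turn triose phosphates into pyruvate made up most of it, with 4611 and 4612 TPM in Foxp3-guide cells and 4311 and 4365 TPM in control-guide cells at 3 h, and 3594 and 3562 TPM against 2387 and 2477 TPM at 0 h. The summed level of the 6 hypoxia-response genes was lower with the Foxp3 guide at both times, though single genes differed. It came to 336 and 332 TPM in Foxp3-guide cells and 440.2 and 410.4 TPM in control-guide cells at 3 h, and 334 and 356 TPM against 491 and 503 TPM at 0 h.

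**Figure D1:**
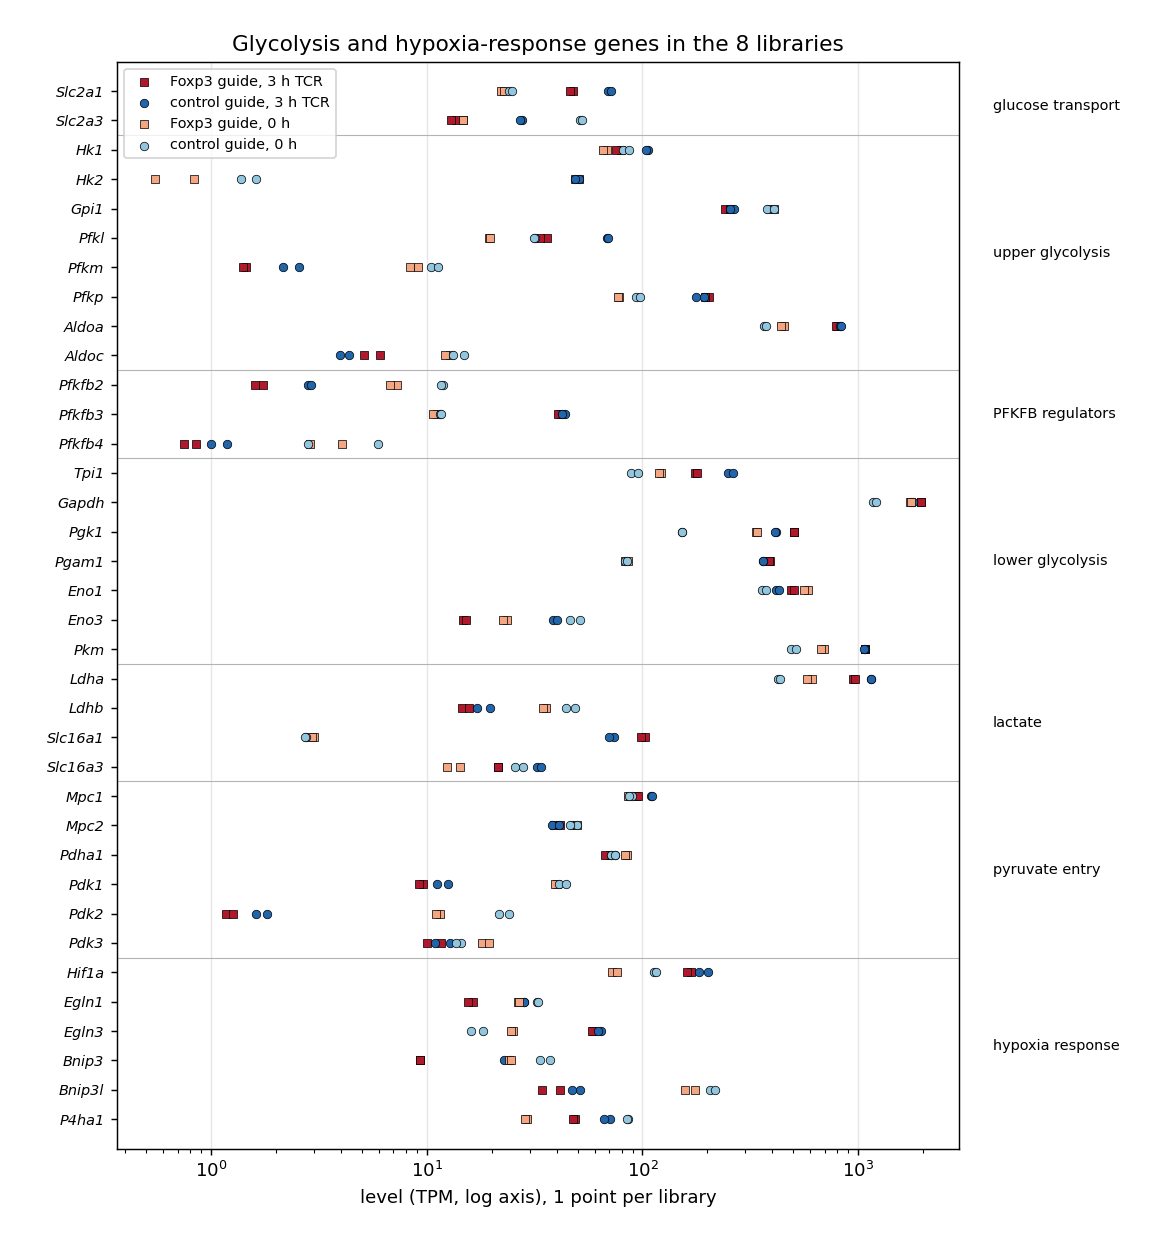
Level of each of the 36 genes in each library, in TPM on a log axis, with 1 point per library; squares are Foxp3-guide and circles control-guide libraries, dark at 3 h and light at 0 h. Hk2 and Slc16a1 lie far to the right of their 0 h points at 3 h with both guides, and Gapdh, Pkm and Ldha are among the highest genes throughout.

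Changes were tested with edgeR's quasi-likelihood test on the counts across all 16642 genes, as log2 changes on the TMM scale (trimmed mean of M values, a scaling that assumes most genes are level), each given with its SE. A gene was called at a Benjamini-Hochberg adjusted p below 0.05. With spreads this small the background of calls is high, so each count is read against it. The background is all 16642 genes and was not matched to the 36 genes by level. How far their level bears on the share called was not tested. For the guide effect at 3 h, 30 of the 36 genes were called, which is 83.3% of them against 61.5% of all genes: 15 were higher (background 30.7%) and 15 lower (30.8%), with a median log2 change of -0.03 beside -0.01 for all genes. For the guide effect at 0 h, 27 were called against a background of 63.3%: 17 were higher (34.2%) and 10 lower (29.1%), with a median of 0.11 beside 0.02. For the TCR effect with the Foxp3 guide 33 were called against 85.4%, 20 higher (40.8%) and 13 lower (44.5%), with a median of 0.43 beside -0.07. For the TCR effect with the control guide 33 were called against 81.8%, 22 higher (40.9%) and 11 lower (40.9%), with a median of 0.63 beside -0.01. The difference between these TCR effects was called for 27 genes against 44.8%, positive for 7 (17.8%) and negative for 20 (27%), with a median of -0.26 beside -0.09. Of changes of at least 2-fold, the guide effect at 3 h had 0 higher (background 7.71%) and 2 lower (Eno3 and Bnip3, 8.88%), and that at 0 h had 1 higher (Pgk1, 9.21%) and 3 lower (Slc2a3, P4ha1 and Hk2, 6.33%). The TCR effect had 11 higher (22.6%) and 6 lower (28.4%) with the Foxp3 guide, and 14 higher (21.8%) and 7 lower (24.2%) with the control guide. The difference between the TCR effects was past 2-fold on the TMM scale for 1 gene, Hk2, in the positive direction (3.33%) and for 0 in the negative (6.02%; 9.36% in either).

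The balance of small changes depends on the scaling. On the log2(TPM+1) scale the median of all genes was -0.12 for the guide effect at 3 h, -0.15 for that at 0 h, -0.18 for the TCR effect with the Foxp3 guide and -0.20 for that with the control guide. There 6 of the 36 genes were higher and 19 lower for the guide at 3 h, 10 higher and 16 lower at 0 h, and 19 higher and 15 lower for the TCR effect with the control guide. Over all genes the share of calls that were higher was 49.9% on the TMM scale and 27.4% on the log2(TPM+1) scale for the guide effect at 3 h, 54% and 27.9% at 0 h, 50% and 37.3% for the TCR effect with the control guide, and 39.7% and 51.5% for the difference between the TCR effects (50.2% with DESeq2). Under every scaling tried, 6 genes were higher and 14 lower with the Foxp3 guide at 3 h, and 10 higher and 10 lower at 0 h. The share of all genes meeting this rule was not counted. Nor is the share of all genes called higher or lower on the log2(TPM+1) scale given. These counts are therefore not read as results about the 36 genes as a set. The 10 higher at 0 h were Aldoa, Tpi1, Gapdh, Pgk1, Eno1, Pkm, Ldha, Pdha1, Pdk3 and Egln3. The 10 lower at 0 h were Slc2a3, Hk2, Pfkl, Eno3, Slc16a3, Pfkfb2, Pdk2, Hif1a, Bnip3 and P4ha1.

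**Figure D2:**
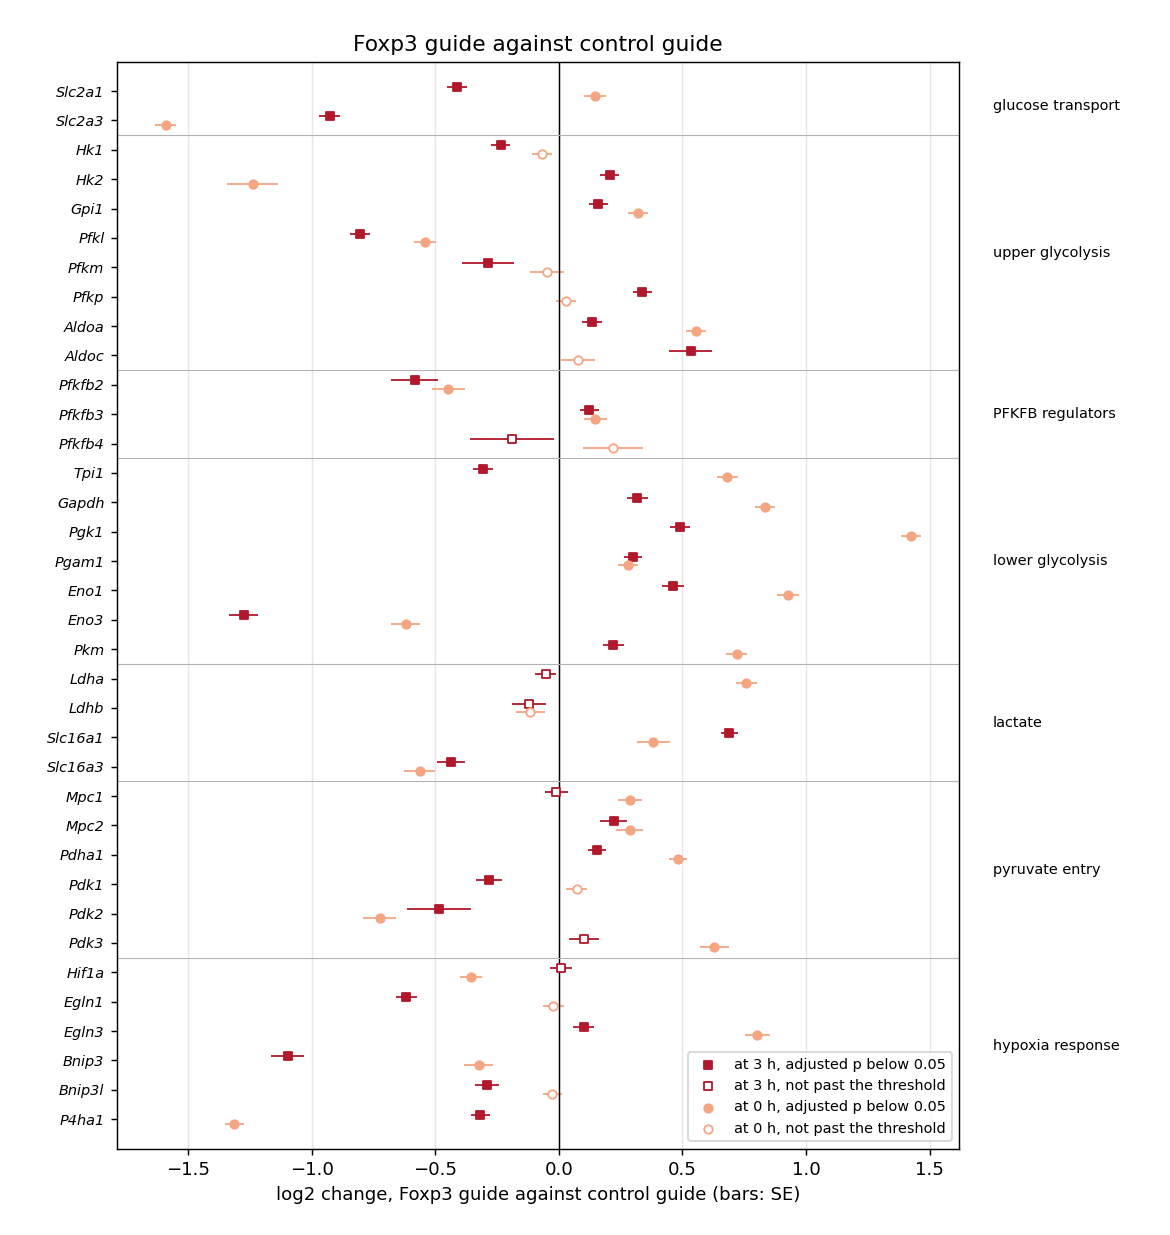
Log2 change with the Foxp3 guide against the control guide for each gene, with SE bars, at 3 h (squares) and 0 h (circles); filled points have an adjusted p below 0.05. Most enzymes of the lower pathway lie to the right of 0 at 0 h and nearer to it at 3 h, while Slc2a3, Pfkl, Eno3, Bnip3 and P4ha1 lie to the left at both times.

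The promoters of 4 genes with large changes are shown because HIF-1 is known to act through a short core motif, ACGTG or GCGTG, in many genes of this pathway. Hk2 and Slc16a1 had the largest TCR effects, Pgk1 the largest rise with the Foxp3 guide at 0 h, and P4ha1 the largest fall there after Slc2a3. Each sequence is 250 bases before to 50 after the start of the RefSeq gene on GRCm38.p6, in the direction of the gene, and capitals mark every ACGTG or GCGTG on either strand (on the opposite strand they read CACGT or CACGC).
Hk2, chr6:82774405-82774704, minus strand: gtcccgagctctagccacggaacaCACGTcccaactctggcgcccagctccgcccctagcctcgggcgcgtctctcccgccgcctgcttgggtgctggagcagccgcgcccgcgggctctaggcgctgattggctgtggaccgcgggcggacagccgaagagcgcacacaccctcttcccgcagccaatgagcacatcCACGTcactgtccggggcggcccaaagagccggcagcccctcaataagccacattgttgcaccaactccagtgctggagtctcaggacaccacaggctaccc
Slc16a1, chr3:104638414-104638713, plus strand: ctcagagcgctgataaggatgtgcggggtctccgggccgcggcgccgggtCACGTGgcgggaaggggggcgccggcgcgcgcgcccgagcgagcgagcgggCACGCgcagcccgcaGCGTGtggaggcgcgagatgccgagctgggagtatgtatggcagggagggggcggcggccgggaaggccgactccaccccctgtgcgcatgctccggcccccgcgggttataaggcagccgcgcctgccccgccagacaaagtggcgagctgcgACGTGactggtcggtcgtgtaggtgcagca
Pgk1, chrX:106186850-106187149, plus strand: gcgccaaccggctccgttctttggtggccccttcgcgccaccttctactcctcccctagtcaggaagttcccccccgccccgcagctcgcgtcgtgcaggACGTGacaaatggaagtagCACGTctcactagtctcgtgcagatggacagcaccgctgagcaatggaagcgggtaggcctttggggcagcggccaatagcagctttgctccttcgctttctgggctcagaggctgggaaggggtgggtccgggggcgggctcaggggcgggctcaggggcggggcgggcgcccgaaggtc
P4ha1, chr10:59323046-59323345, plus strand: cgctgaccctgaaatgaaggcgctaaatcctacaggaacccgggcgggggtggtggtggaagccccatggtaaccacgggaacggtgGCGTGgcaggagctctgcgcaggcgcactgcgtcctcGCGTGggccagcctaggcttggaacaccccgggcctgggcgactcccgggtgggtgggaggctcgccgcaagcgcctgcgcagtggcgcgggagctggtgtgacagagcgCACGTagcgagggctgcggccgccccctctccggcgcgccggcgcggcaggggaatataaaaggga
There were 2 matches in the Hk2 window, 5 in that of Slc16a1, 2 in that of Pgk1 and 3 in that of P4ha1. The first 2 in Slc16a1 are a single CACGTG read on both strands, a motif that E-box factors such as MYC also bind. Promoter windows were at hand for 34 of the 36 genes. Of their 51 windows, some of which overlap, 82.4% held ACGTG or GCGTG, against 60.4% of the 13866 windows of all genes tested and 43.8% of all 32851 windows. ACGTG was in 51% against 25.1% and 19.6%, GCGTG in 58.8% against 48.9% and 32.4%, and CACGTG, which contains ACGTG on both strands, in 15.7% against 9.66% and 7.15%. The windows of the 36 genes were also richer in G and C, with a median of 63.3% against 60.3% and 52.7%. A match is a run of letters and not evidence of binding.

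Slc2a1, the broadly expressed glucose transporter GLUT1, was raised by stimulation, and Slc2a3, the high-affinity transporter GLUT3, was lower with the Foxp3 guide at both times. Slc2a1 had 47.4 and 46 TPM in Foxp3-guide and 69.4 and 71.8 TPM in control-guide cells at 3 h, and 22.1 and 22.9 TPM in Foxp3-guide and 24.1 and 24.8 TPM in control-guide cells at 0 h. All 4 stimulated libraries stood above the 4 at 0 h, and at 3 h the Foxp3-guide libraries stood below the control-guide ones. The TCR effect on Slc2a1 was 1.34 ± 0.04 in Foxp3-guide cells and 1.90 ± 0.04 in control-guide cells, and the difference of -0.56 ± 0.06 was called (edgeR adjusted p = 5.4e-08). The guide effect was -0.41 ± 0.04 at 3 h and 0.15 ± 0.05 at 0 h, and the value at 0 h was -0.12 on the log2(TPM+1) scale and did not pass on the TMM scale without control-guide 0 h replicate 1 (0.11, edgeR adjusted p = 0.098).
Slc2a3 had 13.6 and 13 TPM in Foxp3-guide and 27.6 and 27.2 TPM in control-guide cells at 3 h, and 14.8 and 14.7 TPM in Foxp3-guide and 51.5 and 52.3 TPM in control-guide cells at 0 h. The Foxp3-guide libraries lay below every control-guide library, whatever the time. Slc2a3 changed by -0.93 ± 0.04 with the Foxp3 guide at 3 h and by -1.59 ± 0.04 at 0 h (edgeR adjusted p = 2.2e-20), the largest fall of the 36 genes at 0 h. Stimulation lowered it with the control guide (-0.56 ± 0.04), while with the Foxp3 guide its change was 0.10 ± 0.04 on the TMM scale, -0.13 on the log2(TPM+1) scale and not past the threshold when any 1 of 5 libraries was left out (0.09 to 0.10). The mix of the 2 transporters also differed between groups. Slc2a1 made up 77.8 ± 0.234% of their summed TPM (SD, n = 2) in Foxp3-guide cells and 72 ± 0.713% in control-guide cells at 3 h, and 60.4 ± 0.72% against 32 ± 0.164% at 0 h.

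Among the 8 genes of the upper pathway, from glucose phosphorylation to the cleavage of fructose bisphosphate, 5 rose and 3 fell with stimulation under either guide, while the guide itself gave 5 higher and 3 lower at 3 h and 2 of each at 0 h. All 8 were thus called for each TCR effect, beside 85.4% of all genes in Foxp3-guide cells and 81.8% in control-guide cells. For the guide effect all 8 were called at 3 h, beside 61.5% of all genes, and 50% at 0 h, below the 63.3% of all genes. These calls depend on the scaling. At 3 h only Aldoc (higher), Hk1 and Pfkl (both lower) were called under every scaling tried. At 0 h only Aldoa (higher), Hk2 and Pfkl (both lower) were. Hk2, the inducible hexokinase, had the largest response. Hk2 had 50.7 and 48.6 TPM in Foxp3-guide and 50.8 and 48.5 TPM in control-guide cells at 3 h, and 0.55 and 0.83 TPM in Foxp3-guide and 1.38 and 1.62 TPM in control-guide cells at 0 h. Its level was near 1 TPM at 0 h, on 125 to 238 counts per library, and the 2 guides overlapped at 3 h. The TCR effect was 6.86 ± 0.06 with the Foxp3 guide, a 116-fold rise, and 5.42 ± 0.06 with the control guide, a 42.7-fold rise; the difference of 1.44 ± 0.11 (edgeR adjusted p = 1.1e-10) was the largest positive one of the 36 on the TMM scale. On the log2(TPM+1) scale, which shrinks changes of genes near 1 TPM, the TCR effect was 4.91 in Foxp3-guide cells and 4.34 in control-guide cells, and the difference was 0.57, smaller than that of P4ha1 (1.03). The guide effect on Hk2 was 0.21 ± 0.04 at 3 h (-0.00137 and not called on the log2(TPM+1) scale) and -1.24 ± 0.10 at 0 h (-0.57 on that scale). Hk1, the constitutive hexokinase, ranged from 65.7 to 106 TPM and rose by 0.56 ± 0.04 in Foxp3-guide cells and 0.73 ± 0.04 in control-guide cells. Hk2 came to 39 ± 0.27% of hexokinase TPM in Foxp3-guide cells and 32.2 ± 0.394% in control-guide cells at 3 h, and 1.02 ± 0.312% against 1.75 ± 0.113% at 0 h (SD, n = 2).

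Phosphofructokinase, the main control point of glycolysis, has a liver (Pfkl), a muscle (Pfkm) and a platelet (Pfkp) subunit. Pfkl had 36.2 and 33.4 TPM in Foxp3-guide and 68.3 and 69.1 TPM in control-guide cells at 3 h, and 19.3 and 19.6 TPM in Foxp3-guide and 31.8 and 31.2 TPM in control-guide cells at 0 h. Foxp3-guide libraries were below control-guide libraries at each time, with a guide effect of -0.80 ± 0.04 at 3 h and -0.54 ± 0.04 at 0 h. Pfkp had 204 and 194 TPM in Foxp3-guide and 193 and 177 TPM in control-guide cells at 3 h, and 78 and 77.3 TPM in Foxp3-guide and 92.9 and 97.7 TPM in control-guide cells at 0 h. Pfkp was the most abundant subunit in every library and rose by 1.86 ± 0.04 in Foxp3-guide cells and by 1.55 ± 0.04 in control-guide cells upon stimulation. Pfkl rose as well, by 1.22 ± 0.04 in Foxp3-guide cells and by 1.49 ± 0.04 in control-guide cells. Pfkm had 1.45 and 1.41 TPM in Foxp3-guide and 2.14 and 2.55 TPM in control-guide cells at 3 h, and 9.06 and 8.39 TPM in Foxp3-guide and 10.5 and 11.2 TPM in control-guide cells at 0 h. Pfkm fell with stimulation in both guides, its change being -2.31 ± 0.08 in Foxp3-guide cells and -2.07 ± 0.09 in control-guide cells. Its guide effect at 3 h, -0.29 ± 0.11, did not pass when any 1 of 3 libraries at that time was left out (-0.28 to -0.21). The Pfkp share was 84.6 ± 0.276% in Foxp3-guide cells and 72.2 ± 1.47% in control-guide cells at 3 h, and 73.4 ± 0.0795% against 69.2 ± 0.688% at 0 h (SD, n = 2).
Aldoa had 796 and 789.7 TPM in Foxp3-guide and 826 and 836 TPM in control-guide cells at 3 h, and 454 and 440.4 TPM in Foxp3-guide and 366 and 376 TPM in control-guide cells at 0 h. Aldoa, the main aldolase of most cells, rose by 1.09 ± 0.04 in Foxp3-guide cells and by 1.51 ± 0.04 in control-guide cells, and the guide effect was 0.13 ± 0.04 at 3 h (-0.07 on the log2(TPM+1) scale, and 0.11 with an edgeR adjusted p of 0.057 without control-guide 3 h replicate 1) and 0.55 ± 0.04 at 0 h. Aldoc had 6.03 and 5.12 TPM in Foxp3-guide and 4.36 and 3.96 TPM in control-guide cells at 3 h, and 12.8 and 12.1 TPM in Foxp3-guide and 13.2 and 14.8 TPM in control-guide cells at 0 h. Aldoc, the brain-type aldolase, fell with both guides, by changes of -0.97 ± 0.07 in Foxp3-guide cells and -1.42 ± 0.08 in control-guide cells. Gpi1, the isomerase that follows hexokinase, fell with stimulation, by changes of -0.37 ± 0.04 in Foxp3-guide cells and -0.21 ± 0.04 in control-guide cells, within a range of 241 to 408 TPM. The second row named Aldoa, a gene model just upstream of the first on the same strand, had 3 to 7 counts per library with the Foxp3 guide and 1 to 2 with the control guide at 3 h, and 50 to 70 against 7 to 18 at 0 h.

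The PFKFB enzymes set the amount of the sugar bisphosphate that activates phosphofructokinase. Pfkfb3, the isoform with the strongest kinase bias, rose with stimulation, and Pfkfb2 and Pfkfb4 fell. Pfkfb3 had 41.9 and 40.6 TPM in Foxp3-guide and 43.9 and 42.5 TPM in control-guide cells at 3 h, and 11.1 and 10.7 TPM in Foxp3-guide and 11.4 and 11.7 TPM in control-guide cells at 0 h. All 4 stimulated libraries lay above the 4 at 0 h, and the guides were close. Pfkfb3 rose by 2.24 ± 0.04 in Foxp3-guide cells and 2.26 ± 0.04 in control-guide cells, and the 95% confidence interval of the difference was -0.15 to 0.10. Pfkfb2 had 1.6 and 1.73 TPM in Foxp3-guide and 2.81 and 2.9 TPM in control-guide cells at 3 h, and 7.26 and 6.73 TPM in Foxp3-guide and 11.9 and 11.6 TPM in control-guide cells at 0 h. Pfkfb2 was lower with the Foxp3 guide at 3 h (-0.58 ± 0.09) and at 0 h (-0.45 ± 0.07), and it fell with stimulation in both guides, with changes of -1.76 ± 0.08 in Foxp3-guide cells and -1.63 ± 0.08 in control-guide cells. Pfkfb4 had 0.85 and 0.75 TPM in Foxp3-guide and 1.18 and 1 TPM in control-guide cells at 3 h, and 2.87 and 4.05 TPM in Foxp3-guide and 2.81 and 5.92 TPM in control-guide cells at 0 h. Pfkfb4 was low, its control-guide libraries at 0 h spread widely in TPM, and neither guide effect was called. It changed by -1.70 ± 0.13 with stimulation in Foxp3-guide cells and by -1.29 ± 0.15 in control-guide cells. With Pfkfb1 counted in, Pfkfb3 made up 91 ± 0.145% of PFKFB TPM in Foxp3-guide cells and 89.2 ± 0.922% in control-guide cells at 3 h, and 38.4 ± 2.07% against 34.6 ± 1.93% at 0 h (SD, n = 2).

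**Figure D3:**
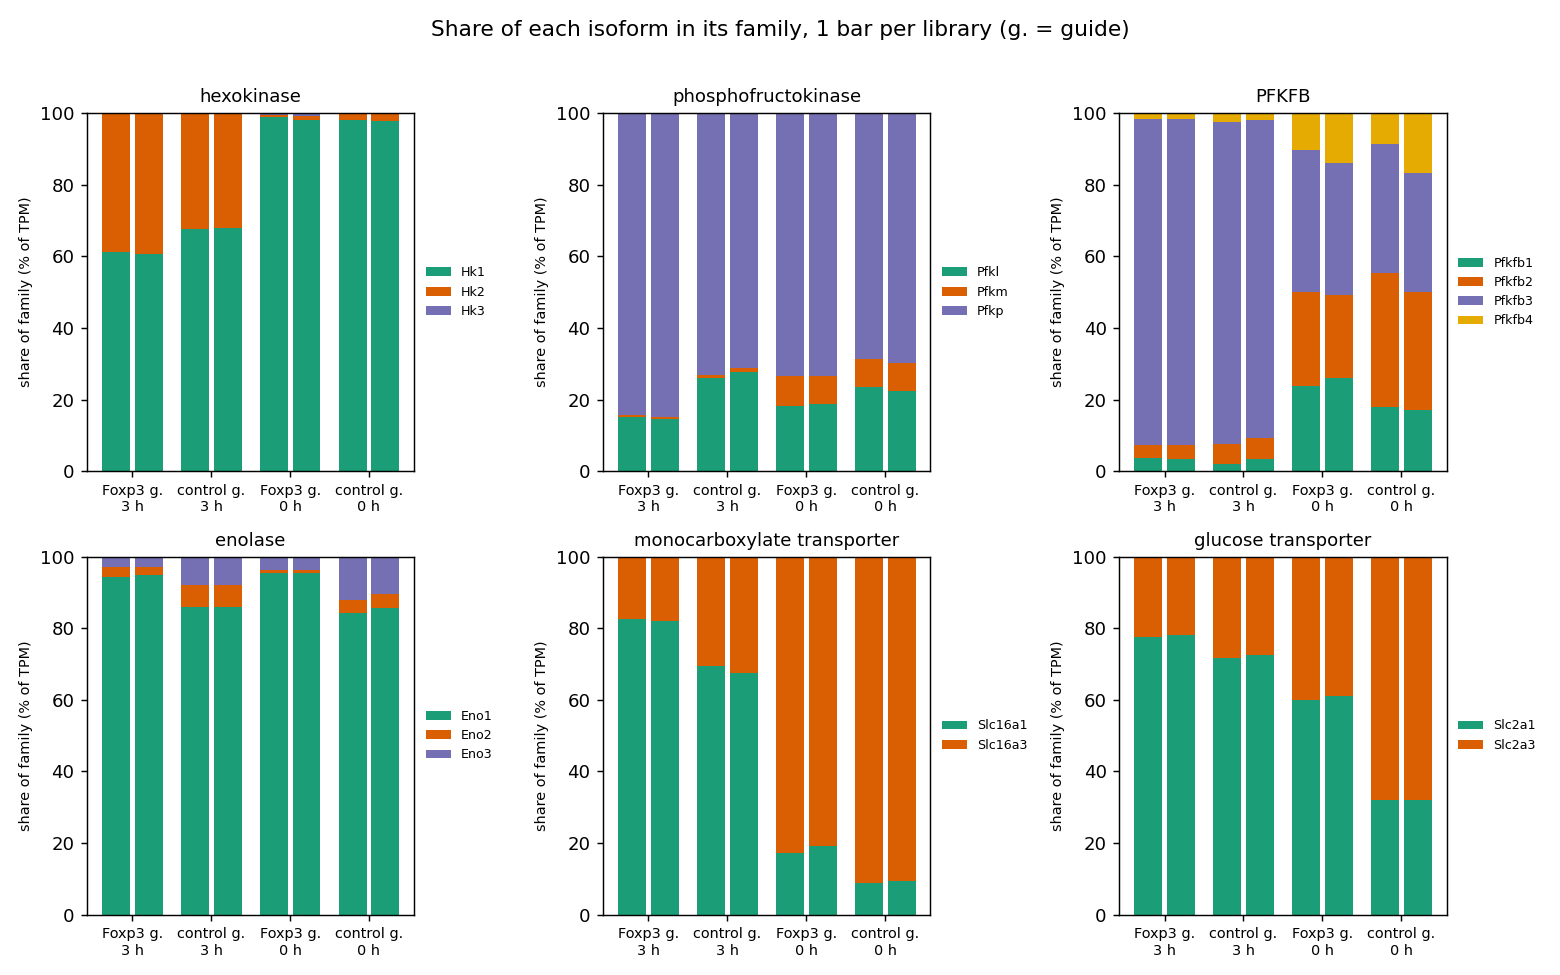
Share of each isoform in the summed TPM of its family, in percent, with 1 bar per library and the groups in the order Foxp3 guide 3 h, control guide 3 h, Foxp3 guide 0 h and control guide 0 h. Hk2, Pfkfb3 and Slc16a1 take larger shares at 3 h with both guides, and Slc2a1 and Eno1 take larger shares with the Foxp3 guide than with the control guide at each time.

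All 7 genes of the lower pathway, from triose phosphate to pyruvate, were called for the guide effect at both times. With the Foxp3 guide 5 were higher and 2 lower at 3 h, with a median log2 change of 0.30, and 6 were higher and 1 lower at 0 h, with a median of 0.72. Over all genes 30.7% were higher and 30.8% lower at 3 h, and 34.2% and 29.1% at 0 h. Of the 6 higher at 0 h, Pgam1 was not past the threshold on the log2(TPM+1) scale. Pgk1, the phosphoglycerate kinase that makes the first ATP of this stretch, had the largest rise. Pgk1 had 503 and 507 TPM in Foxp3-guide and 415 and 413 TPM in control-guide cells at 3 h, and 337 and 340.2 TPM in Foxp3-guide and 152 and 153 TPM in control-guide cells at 0 h. The Foxp3-guide libraries were above the control-guide libraries at each time. The guide effect was 0.49 ± 0.04 at 3 h and 1.42 ± 0.04, a 2.68-fold rise, at 0 h (edgeR adjusted p = 1.3e-19). Stimulation raised Pgk1 by 0.88 ± 0.04 in Foxp3-guide cells and by 1.81 ± 0.04 in control-guide cells, a difference of -0.94 ± 0.06 (edgeR adjusted p = 1.3e-12).
Tpi1 had 175 and 179.6 TPM in Foxp3-guide and 250.04 and 263 TPM in control-guide cells at 3 h, and 122 and 119 TPM in Foxp3-guide and 88.8 and 95.3 TPM in control-guide cells at 0 h. Tpi1, triose phosphate isomerase, changed sides between the times: the Foxp3-guide libraries were the lower ones at 3 h and the higher ones at 0 h. Its guide effect was -0.31 ± 0.04 at 3 h and 0.68 ± 0.04 at 0 h, and both were called under every scaling tried. Gapdh had 1960.2 and 1951 TPM in Foxp3-guide and 1759 and 1792 TPM in control-guide cells at 3 h, and 1748 and 1759 TPM in Foxp3-guide and 1169 and 1209 TPM in control-guide cells at 0 h. Gapdh, often used as a reference transcript, was the most abundant of the 36 genes and changed by 0.32 ± 0.04 with the Foxp3 guide at 3 h and by 0.83 ± 0.04 at 0 h. It rose with stimulation by 0.44 ± 0.04 in Foxp3-guide cells and by 0.95 ± 0.04 in control-guide cells.
Pkm had 1079.5 and 1071 TPM in Foxp3-guide and 1072 and 1066.5 TPM in control-guide cells at 3 h, and 694 and 675 TPM in Foxp3-guide and 488 and 516 TPM in control-guide cells at 0 h. The 4 stimulated libraries of Pkm, the pyruvate kinase gene that yields the final ATP, lay within 1066.5 to 1079.5 TPM, while the guides were apart at 0 h. The guide effect on it was 0.22 ± 0.04 at 3 h, not past the threshold on the log2(TPM+1) scale at 0.01, and 0.72 ± 0.04 at 0 h. Pgam1 had 389.6 and 384 TPM in Foxp3-guide and 361 and 362 TPM in control-guide cells at 3 h, and 82.8 and 85.6 TPM in Foxp3-guide and 82.6 and 85.2 TPM in control-guide cells at 0 h. Pgam1, the phosphoglycerate mutase, rose by 2.50 ± 0.04 in Foxp3-guide cells and by 2.48 ± 0.04 in control-guide cells, and the 95% confidence interval of the difference was -0.09 to 0.13. Eno1, the ubiquitous enolase, ranged from 357 to 587 TPM, highest with the Foxp3 guide at 0 h. It was higher with the Foxp3 guide at 3 h by 0.46 ± 0.04 and at 0 h by 0.93 ± 0.04, and stimulation raised it with the control guide (0.54 ± 0.04). With the Foxp3 guide its TCR effect was 0.07 ± 0.04 and not called on the TMM scale, was called at 0.12 with RLE scaling and DESeq2, and was negative under upper-quartile scaling and in TPM.
Eno3 had 14.7 and 15.2 TPM in Foxp3-guide and 38.5 and 40.1 TPM in control-guide cells at 3 h, and 23.6 and 22.6 TPM in Foxp3-guide and 51.3 and 45.9 TPM in control-guide cells at 0 h. Eno3, the muscle enolase, was the 1 member of the lower pathway that was lower with the Foxp3 guide at 0 h. Its guide effect was -1.27 ± 0.06 at 3 h (edgeR adjusted p = 1.9e-15) and -0.62 ± 0.06 at 0 h. Stimulation changed it by -0.32 ± 0.06 with the Foxp3 guide, and by 0.33 ± 0.06 with the control guide, a rise on the TMM scale that was -0.30 in TPM. The share of Eno1 in enolase TPM, Eno2 included, was 94.6 ± 0.264% in Foxp3-guide cells and 85.9 ± 0.0113% in control-guide cells at 3 h, and 95.4 ± 0.0621% against 85 ± 1.01% at 0 h (SD, n = 2). Some counts of these enzymes may be shared with close copies in the genome. Eno1b had 8.03% to 8.77% of the counts of Eno1 across libraries, Pgam1-ps2 had 7.46% to 10.1% of those of Pgam1, and Pgk1-rs7 had 0 to 5.35% of those of Pgk1. How reads were divided among such copies cannot be checked from gene totals.

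Of the 4 lactate genes, Ldha, which reduces pyruvate to lactate, and Slc16a1, the lactate and pyruvate carrier MCT1, rose with stimulation, as did the exporter Slc16a3 (MCT4), while Ldhb fell. Ldha had 949.9 and 972 TPM in Foxp3-guide and 1152 and 1149.9 TPM in control-guide cells at 3 h, and 608 and 581 TPM in Foxp3-guide and 424 and 434 TPM in control-guide cells at 0 h. The Foxp3-guide libraries were below the control-guide libraries at 3 h and above them at 0 h. The guide effect on Ldha was -0.05 ± 0.04 at 3 h, not called on the TMM scale and called at -0.26 on the log2(TPM+1) scale, and 0.76 ± 0.04 at 0 h. Its rise with stimulation was 0.99 ± 0.04 in Foxp3-guide cells and 1.80 ± 0.04 in control-guide cells, a difference of -0.81 ± 0.06 (edgeR adjusted p = 5.9e-11).
Slc16a1 had 102 and 97.9 TPM in Foxp3-guide and 73.6 and 69.7 TPM in control-guide cells at 3 h, and 2.98 and 2.94 TPM in Foxp3-guide and 2.75 and 2.71 TPM in control-guide cells at 0 h. The libraries at 0 h were alike at just under 3 TPM, and the 2 Foxp3-guide libraries were the highest at 3 h. Slc16a1 rose by 5.39 ± 0.05 with the Foxp3 guide, 41.8-fold, and by 5.08 ± 0.05 with the control guide, 33.8-fold, with a difference of 0.31 ± 0.08. At 3 h the guide effect was 0.69 ± 0.04, and at 0 h it was 0.38 ± 0.07 on the TMM scale and not past the threshold in TPM. Slc16a3 was lower with the Foxp3 guide at 3 h (-0.44 ± 0.06) and at 0 h (-0.56 ± 0.06), within a range of 12.4 to 33.7 TPM, and rose with stimulation by 0.89 ± 0.06 in Foxp3-guide cells and by 0.76 ± 0.06 in control-guide cells. Slc16a1 made up 82.4 ± 0.484% of the summed TPM of both carriers in Foxp3-guide cells and 68.4 ± 1.42% in control-guide cells at 3 h, and 18.2 ± 1.34% against 9.27 ± 0.373% at 0 h (SD, n = 2). Ldhb, the isoform that favours the reverse reaction, ranged from 14.6 to 48.5 TPM and fell with stimulation, by changes of -0.96 ± 0.06 in Foxp3-guide cells and -0.96 ± 0.07 in control-guide cells. Ldha was 98.5 ± 0.0509% of lactate dehydrogenase TPM in Foxp3-guide cells and 98.4 ± 0.142% in control-guide cells at 3 h, and 94.4 ± 0.0487% against 90.3 ± 0.423% at 0 h.

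**Figure D4:**
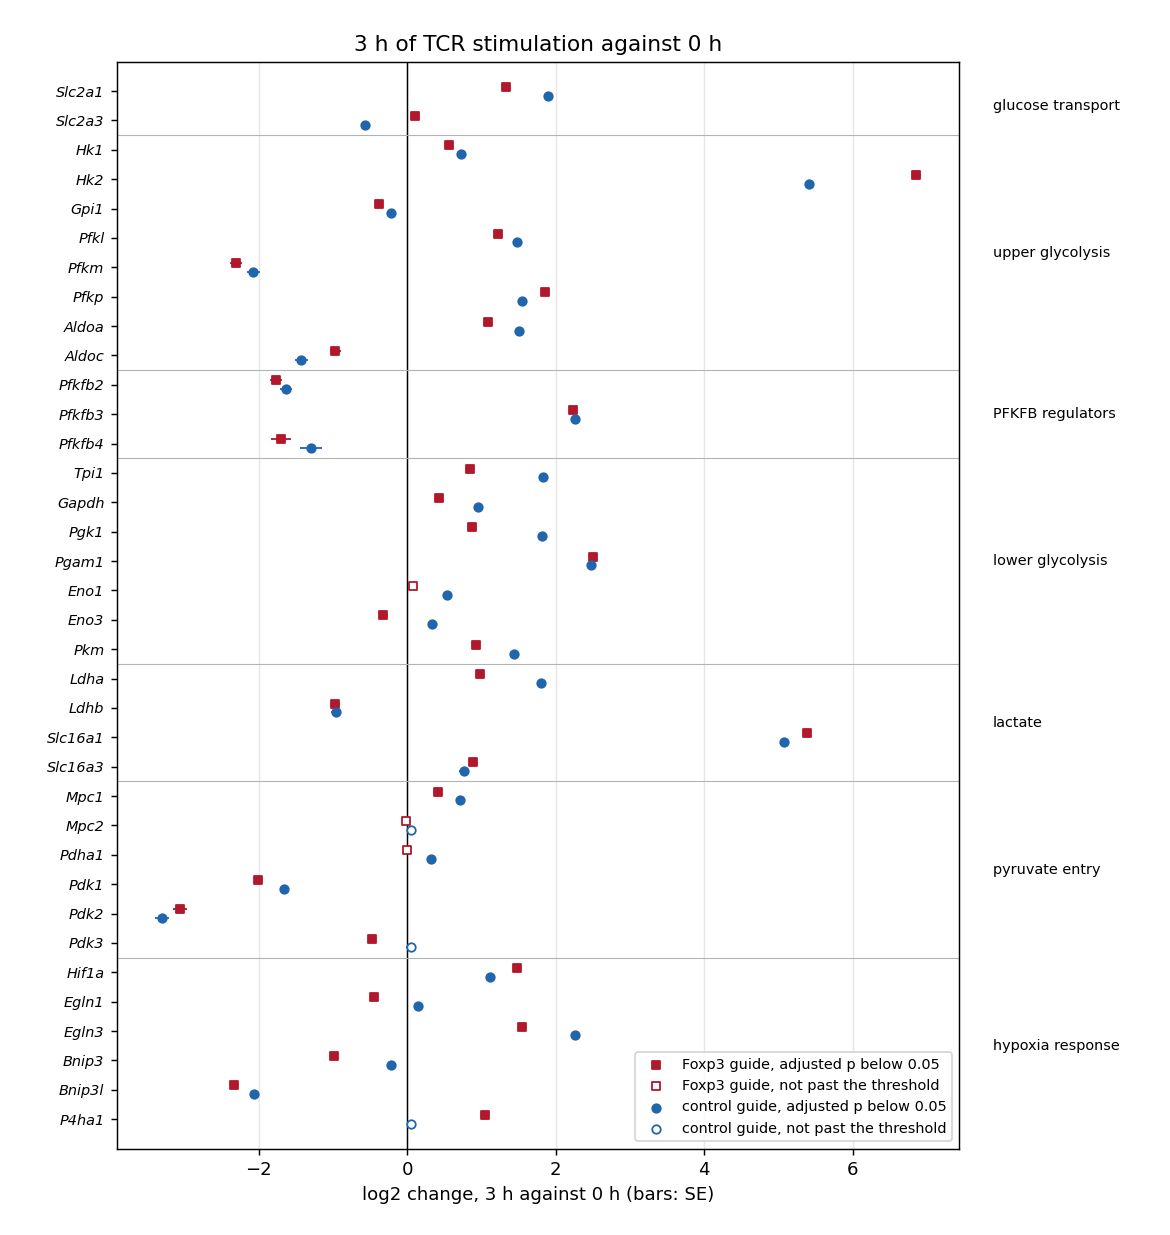
Log2 change after 3 h of TCR stimulation against 0 h for each gene, with SE bars, with the Foxp3 guide (squares) and the control guide (circles); filled points have an adjusted p below 0.05. Hk2 and Slc16a1 lie beyond 5 with both guides, and most lower-pathway enzymes and Ldha lie further right with the control guide.

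Pyruvate enters mitochondria through the carrier Mpc1 and Mpc2 and is oxidised by pyruvate dehydrogenase, of which Pdha1 is the catalytic alpha subunit and which the Pdk kinases switch off. With stimulation Mpc1 rose with both guides, while Pdk1 and Pdk2 fell after stimulation with both guides and Pdk3 with the Foxp3 guide. Pdk1 had 9.57 and 9.15 TPM in Foxp3-guide and 12.5 and 11.1 TPM in control-guide cells at 3 h, and 40.1 and 39.4 TPM in Foxp3-guide and 40.8 and 44 TPM in control-guide cells at 0 h. The 4 libraries at 0 h were alike and the 4 at 3 h were all lower. Pdk1, known as a HIF-1 target, changed by -2.01 ± 0.05 in Foxp3-guide cells and by -1.65 ± 0.05 in control-guide cells. Pdk2 had 1.17 and 1.26 TPM in Foxp3-guide and 1.82 and 1.61 TPM in control-guide cells at 3 h, and 11.6 and 11 TPM in Foxp3-guide and 21.5 and 24.1 TPM in control-guide cells at 0 h. Pdk2 had the largest fall of the 36 genes with either guide, -3.06 ± 0.09 in Foxp3-guide cells and -3.30 ± 0.09 in control-guide cells, and was lower with the Foxp3 guide at 0 h by a change of -0.72 ± 0.07. Its guide effect of -0.48 ± 0.13 at 3 h had an edgeR adjusted p of 0.062 without Foxp3-guide 3 h replicate 2. Pdk3 had 11.6 and 10 TPM in Foxp3-guide and 12.9 and 10.9 TPM in control-guide cells at 3 h, and 18 and 19.3 TPM in Foxp3-guide and 14.4 and 13.7 TPM in control-guide cells at 0 h. Pdk3 was higher with the Foxp3 guide at 0 h (0.63 ± 0.06), fell with stimulation in Foxp3-guide cells (-0.47 ± 0.06), and gave 0.05 ± 0.06 in control-guide cells, a value not past the threshold on the TMM scale, called at -0.18 under upper-quartile scaling and -0.23 without being called in TPM.
Mpc1, Mpc2 and Pdha1 kept within 85.9 to 111 TPM, 38.2 to 49.9 TPM and 67.3 to 84.5 TPM. Pdha1 was higher with the Foxp3 guide at 3 h by 0.15 ± 0.04, which became -0.07 in TPM, and at 0 h by 0.48 ± 0.04. Mpc1 was higher with the Foxp3 guide at 0 h by 0.29 ± 0.05, which became -0.02 in TPM, and rose with stimulation by 0.42 ± 0.04 in Foxp3-guide cells and by 0.72 ± 0.05 in control-guide cells. Mpc2 had guide effects of 0.22 ± 0.05 at 3 h and 0.29 ± 0.05 at 0 h, neither of which passed in TPM.

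The hypoxia-response genes did not move as 1 group. With the Foxp3 guide, 1 was higher and 4 lower at 3 h (30.7% and 30.8% of all genes). At 0 h 1 was higher and 3 lower (34.2% and 29.1% of all genes). The genes called are 83.3% of the 6 at 3 h against 61.5% of all genes, and 66.7% at 0 h, near the 63.3% of all genes. At 3 h the 4 lower genes were called under every scaling tried, and the 1 higher, Egln3, was not. Hif1a had 169 and 160.2 TPM in Foxp3-guide and 201 and 183 TPM in control-guide cells at 3 h, and 72.5 and 75.9 TPM in Foxp3-guide and 113 and 116 TPM in control-guide cells at 0 h. Hif1a was raised by stimulation with both guides, by 1.48 ± 0.04 in Foxp3-guide cells and 1.12 ± 0.04 in control-guide cells. At 3 h its guide effect was 0.01 ± 0.04, not called on the TMM scale and called at -0.22 on the log2(TPM+1) scale, and at 0 h it was lower with the Foxp3 guide (-0.35 ± 0.04). HIF-1 activity is set mainly by the stability of its protein, which transcript levels do not show.
Egln1 had 16.3 and 15.6 TPM in Foxp3-guide and 28.1 and 28.3 TPM in control-guide cells at 3 h, and 26.6 and 26.9 TPM in Foxp3-guide and 32.5 and 32.8 TPM in control-guide cells at 0 h. Egln1, the prolyl hydroxylase that marks HIF-1 alpha for destruction in normal oxygen, was lowest with the Foxp3 guide at 3 h. The guide effect on it was -0.62 ± 0.04 at 3 h and -0.02 ± 0.04, not called on the TMM scale, at 0 h. In TPM its Foxp3-guide libraries at 0 h were nevertheless below the control-guide ones without overlap. Stimulation lowered it with the Foxp3 guide (-0.44 ± 0.04), while with the control guide its TCR effect was 0.15 ± 0.04 on the TMM scale, -0.08 under upper-quartile scaling and -0.20 in TPM. Egln3 had 59.2 and 58.5 TPM in Foxp3-guide and 64.4 and 62.4 TPM in control-guide cells at 3 h, and 25 and 24.5 TPM in Foxp3-guide and 16.1 and 18.1 TPM in control-guide cells at 0 h. Egln3, a hydroxylase that HIF-1 itself induces, rose by 1.55 ± 0.04 in Foxp3-guide cells and 2.25 ± 0.05 in control-guide cells, and was higher with the Foxp3 guide at 0 h by 0.80 ± 0.05. Its guide effect at 3 h, 0.10 ± 0.04, was -0.10 in TPM and did not pass without any single library at that time.
P4ha1 had 48.9 and 47.5 TPM in Foxp3-guide and 71.1 and 66.4 TPM in control-guide cells at 3 h, and 29 and 28.6 TPM in Foxp3-guide and 85.8 and 84.8 TPM in control-guide cells at 0 h. P4ha1, a subunit of the collagen prolyl hydroxylase and a HIF-1 target, was lower with the Foxp3 guide at both times, without overlap. The guide effect was -0.32 ± 0.04 at 3 h and -1.31 ± 0.04 at 0 h (edgeR adjusted p = 2.9e-19). Stimulation raised it in Foxp3-guide cells (1.05 ± 0.04), while in control-guide cells its change was 0.05 ± 0.04, not past the threshold on the TMM scale and called at -0.18 under upper-quartile scaling and at -0.31 in TPM. The difference of 0.996 ± 0.05 had an edgeR adjusted p of 2.2e-13.
Bnip3 had 9.26 and 9.25 TPM in Foxp3-guide and 24.2 and 22.8 TPM in control-guide cells at 3 h, and 24.1 and 24.4 TPM in Foxp3-guide and 37.1 and 33.4 TPM in control-guide cells at 0 h. Bnip3, a mitophagy receptor of the outer mitochondrial membrane, was lower with the Foxp3 guide at each time and lowest with it at 3 h. Its guide effect was -1.10 ± 0.07 at 3 h and -0.32 ± 0.06 at 0 h, and its TCR effect was -0.99 ± 0.06 in Foxp3-guide cells and -0.21 ± 0.06 in control-guide cells, the last not past the threshold without control-guide 0 h replicate 1. Bnip3l had 34.2 and 41.3 TPM in Foxp3-guide and 51.3 and 47.1 TPM in control-guide cells at 3 h, and 157 and 176 TPM in Foxp3-guide and 207 and 218 TPM in control-guide cells at 0 h. Bnip3l, the related receptor NIX, fell after stimulation with both guides, with changes of -2.33 ± 0.04 in Foxp3-guide cells and -2.07 ± 0.04 in control-guide cells. The guide effect on it was -0.29 ± 0.05 at 3 h and -0.03 ± 0.04, not called on the TMM scale, at 0 h. In TPM its Foxp3-guide libraries at 0 h were nevertheless below the control-guide ones without overlap. Bnip3l-ps, a processed copy, had 4.67% to 7.35% of the counts of Bnip3l.

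The difference between the TCR effects is also the difference between the guide effects at 3 h and 0 h. Over all genes it was called negative for 27% and positive for 17.8%, with a median of -0.09. For 6 of the 7 lower-pathway enzymes and for Ldha it was negative: the rise with stimulation was smaller in Foxp3-guide cells, or, for Eno1 and Eno3, was not seen on the TMM scale, and these genes other than Eno3 were higher with the Foxp3 guide at 0 h. It ran from -0.99 for Tpi1 to -0.47 for Eno1 among those 6, and was 0.02 ± 0.06 for Pgam1, which was not called. Positive differences were called for Hk2, P4ha1, Slc2a3, Aldoc, Hif1a, Pfkp and Slc16a1. Of these Hk2, P4ha1, Slc2a3 and Hif1a were lower with the Foxp3 guide at 0 h.

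Further genes of the same pathways were taken from 6 lists, chosen like the 36 with earlier results of these data known. Of their 80 symbols 79 are in the tables and 67 passed the filter. The guide effect called 30 higher and 23 lower of 67 at 3 h (30.7% and 30.8% of all genes). At 0 h it called 18 higher and 26 lower (34.2% and 29.1% of all genes). The TCR effect called 38 higher and 27 lower with the Foxp3 guide (40.8% and 44.5% of all genes). With the control guide it called 36 higher and 27 lower (40.9% each way). The shares called were 79.1% for the guide effect at 3 h against 61.5% of all genes, 65.7% at 0 h against 63.3%, 97% for the TCR effect with the Foxp3 guide against 85.4%, and 94% with the control guide against 81.8%. Among the 26 further hypoxia genes tested, 17 rose and 8 fell with stimulation in Foxp3-guide cells and 15 rose and 8 fell in control-guide cells (backgrounds as above, 40.8% higher and 44.5% lower, and 40.9% each way). The guide effect on these 26 called 11 higher and 11 lower at 3 h (30.7% and 30.8% of all genes), and 6 higher and 11 lower at 0 h (34.2% and 29.1%).
Txnip, a brake on glucose uptake whose own transcription follows glucose, had 13.5 and 12.9 TPM with the Foxp3 guide and 92.3 and 96.3 TPM with the control guide at 3 h, and 593 and 610.3 TPM against 960.4 and 997 TPM at 0 h. It was lowest by far in the stimulated Foxp3-guide libraries. Its guide effect was -2.67 ± 0.05 at 3 h and -0.43 ± 0.04 at 0 h, and its relative Arrdc4 gave -2.35 ± 0.07 at 3 h and -1.28 ± 0.06 at 0 h. Pdp1, the phosphatase that switches pyruvate dehydrogenase on, had 24.7 and 25.2 TPM with the Foxp3 guide and 25.2 and 22.8 TPM with the control guide at 3 h, and 6.24 and 5.92 TPM against 16.4 and 16.4 TPM at 0 h. The guides overlapped in TPM at 3 h, where the log2 change on the TMM scale was 0.25 ± 0.05, and Pdp1 was lower with the Foxp3 guide at 0 h by a change of -1.17 ± 0.06. Adm (adrenomedullin), a secreted HIF-1 target, had 0.48 and 0.71 TPM with the Foxp3 guide against 11.2 and 11.8 TPM with the control guide at 3 h, and at most 0.17 TPM in any library at 0 h. Ak4, a mitochondrial adenylate kinase, had 5.2 and 5.71 TPM with the Foxp3 guide against 15.8 and 15.7 TPM with the control guide at 3 h, and at most 0.44 TPM at 0 h. Other hypoxia-inducible genes were instead higher with the Foxp3 guide at 3 h, among them Car12, a carbonic anhydrase, at 1.06 ± 0.05, and Hmox1, heme oxygenase, at 1.33 ± 0.07.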

How the data were processed

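RNA-seq was measured in 8 libraries, 2 in each of 4 groups taken from the sample labels. The tools named per the submitters' processing notes are Trim Galore 0.6.3, STAR 2.7.9a and RSEM 1.3.1, and the builds are mm10 and GRCm38. The annotation release is not given in the sources used here. The authors deposited RSEM expected counts, which estimate reads per gene and share out reads that match several genes, and TPM, which divide by length and depth within a library, so that a few abundant genes move all others.

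Expected counts were rounded, filtered with filterByExpr (16642 of 55665 genes kept), scaled by TMM and tested with edgeR 4.0.16 in R 4.3.3 (robust quasi-likelihood, 1 fit of all 8 libraries, no block), with Benjamini-Hochberg adjustment over all genes kept. Genes were called at an adjusted p below 0.05. The SE is the log2 change divided by the square root of F. TPM served for levels and isoform shares. Alternatives were upper-quartile or RLE scaling, a DESeq2 1.42.0 fit, limma 3.58.1 on log2(TPM+1) with a pseudocount of 1, no filter, the 4 compared libraries alone, a replicate block and each library left out. The edgeR steps were run on simulated data with changes in few genes of a single group. That setting differs from these data, so it does not show that the scaling or the calls here are right. The libraries of each group differed by more than sampling noise (chi-square per gene 4.25 to 6.81). Gene IDs were matched to GENCODE M21 (GRCm38; 54984 IDs found, with all 36 genes). Promoters came from RefSeq. The 36 genes, the further lists and the tests were chosen with earlier results of these data known. All 36 genes are named, with every library's value for those that changed at least 2-fold in 1 of the first 4 comparisons or by at least 0.5 in the difference between TCR effects. Further genes could be named if called with a 2-fold change. Some marker genes of other cell types are not reported here.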

Additional observations from a re-analysis of the deposited data

Results flagged for a closer look

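The TCR effect differed between the guides for 27 of the 36 genes (edgeR's quasi-likelihood interaction test, Benjamini-Hochberg adjusted p from 2.2e-13 for P4ha1 to 0.022 for Gpi1), and each is listed because of that test. Every value is the log2 TCR effect with the Foxp3 guide minus that with the control guide, with its SE, on 2 libraries per group. In the lower pathway the difference was -0.99 ± 0.06 for Tpi1, -0.94 ± 0.06 for Pgk1, -0.65 ± 0.08 for Eno3, -0.52 ± 0.06 for Gapdh, -0.50 ± 0.06 for Pkm and -0.47 ± 0.06 for Eno1. In the upper pathway it was -0.42 ± 0.06 for Aldoa, -0.26 ± 0.06 for Pfkl, -0.17 ± 0.05 for Hk1 and -0.16 ± 0.06 for Gpi1, and the values of Hk1 and Gpi1 no longer passed without any 1 of several single libraries. For the transporter Slc2a1 it was -0.56 ± 0.06, and for Ldha -0.81 ± 0.06. Among genes of pyruvate entry it was -0.53 ± 0.08 for Pdk3, -0.35 ± 0.07 for Pdk1, -0.33 ± 0.05 for Pdha1 and -0.30 ± 0.07 for Mpc1. In the hypoxia response it was -0.77 ± 0.09 for Bnip3, -0.70 ± 0.07 for Egln3, -0.60 ± 0.06 for Egln1 and -0.26 ± 0.06 for Bnip3l. It was positive at 1.44 ± 0.11 for Hk2, 0.996 ± 0.05 for P4ha1, 0.66 ± 0.06 for Slc2a3, 0.46 ± 0.11 for Aldoc, 0.36 ± 0.06 for Hif1a, 0.31 ± 0.06 for Pfkp and 0.31 ± 0.08 for Slc16a1. The differences for Hk1, Gpi1, Pdk1 and Bnip3l were not called under at least 1 of the other scalings. The 7 positive ones and the other 16 negative ones were called under every scaling tried.

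For all genes tested, 44.8% were called in this comparison and the median was -0.09. The summed level of the 8 cell division transcripts also differed with guide and time, as given above, and its part in these differences was not tested.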

How the results depend on the processing

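The number of the 36 genes called stayed within 1.5 times its main value in each of the 5 comparisons under every alternative run. Leaving out each library in turn gave 27 to 30 called genes for the guide effect at 3 h, 26 to 28 for that at 0 h, 32 to 33 for the TCR effect with the Foxp3 guide, 32 to 34 with the control guide, and 25 to 27 for their difference. Of 1440 single-gene values with a library left out, 1392 kept direction and side of the threshold, 24 lost the call, 5 gained it, 19 changed sign without being called in either, and 0 that were called changed sign. Of 1224 values under the other alternatives, 1114 did so, 29 lost the call, 26 gained it, 31 changed sign without being called in either, and 24 changed sign with a call. On the log2(TPM+1) scale the changed signs of the guide effect at 3 h were -0.00137 for Hk2, -0.074 for Gpi1, -0.067 for Aldoa, -0.065 for Pfkfb3, -0.072 for Pdha1, -0.22 for Hif1a and -0.10 for Egln3. At 0 h they were -0.12 for Slc2a1, -0.29 for Pfkp, -0.079 for Pfkfb3 and -0.024 for Mpc1. For the TCR effect there they were -0.13 for Slc2a3 and -0.21 for Eno1 with the Foxp3 guide, and -0.30 for Eno3, -0.28 for Mpc2, -0.0094 for Pdha1, -0.20 for Egln1 and -0.31 for P4ha1 with the control guide. Under upper-quartile scaling they were -0.070 for Slc2a3 and -0.10 for Eno1 with the Foxp3 guide, and -0.18 for Mpc2, -0.18 for Pdk3, -0.084 for Egln1 and -0.18 for P4ha1 with the control guide. The cause of these changes of sign was not tested. Same-numbered libraries did not deviate together (correlations from -0.0757 to 0.00947), so the numbers were not taken as pairs. With the replicate number as a block 29, 27, 33, 33 and 27 genes were called in the 5 comparisons in the order above, and the 1 lost was Egln3 at 3 h (0.10, edgeR adjusted p = 0.056). A fit of only the 4 libraries compared gave no separate value for the difference between the TCR effects. With 2 libraries per group the spread is estimated mostly from all genes together, and low genes such as Pfkfb4 and Pfkm have wide errors.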
